A study of Mus musculus with 6 samples.

Results

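Solute carriers are membrane proteins that move small molecules into and out of cells and organelles. The genes described here have a symbol of Slc followed by a digit, which leaves out the Slco carriers. Of the 199 genes with such a symbol in the deposited table, 168 reached 1 RPKM or more (reads scaled to gene length and library size) in at least 2 of the 6 libraries. From these, 10 were set aside by name, among them the cystine, iron and lactate carriers Slc7a11, Slc40a1 and Slc16a1, and the other 158 are described here, out of 10609 genes tested. RNA was measured in muscle stem cells of male C57BL/6 mice. Cells that lacked CD45, CD31 and Sca1 and carried VCAM were sorted and stained with 5 uM ThiolTracker Violet, which reads reduced glutathione (GSH). Old GSH-low and old GSH-high cells were the dim and bright fractions of cells from mice aged 23 months, with 2 animals pooled in each library. Young cells came from mice aged 4 months, 1 animal in each library, were not divided by the dye and carry a high glutathione status in the labels. Each of the 3 groups had 2 libraries, the labels give no allele and no treatment for any of the mice, and whether the old fractions came from the same pools is not stated.

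Carriers do not burn ATP themselves. Many use the sodium gradient that the sodium-potassium pump maintains, others exchange one solute for another, and others let a solute run down its own gradient. In muscle stem cells, which rest between fibre and basal lamina until injury, carriers supply amino acids, glucose, choline and metals, and the members of the Slc25 family link the cytosol with the mitochondrial matrix. Glutathione is made in the cytosol from glutamate, cysteine and glycine, so that its level depends on amino acid uptake, and its pool in mitochondria depends on import.

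The libraries held 50.71 and 47 M recovered reads in old GSH-low, 68.79 and 60.76 M in old GSH-high and 63.11 and 60.05 M in young. All 12 satellite cell markers were measured, with summed levels of 3062 to 3188 RPKM in old GSH-low, 3530.0 to 3710.0 in old GSH-high and 3831 to 4063 in young. Sdc4 was the largest part of that sum, with means of 1399.4, 1608.7 and 1847.8 RPKM in that order. Pax7 and Heyl went the other way. Their means were 11.9, 8.37 and 7.79 RPKM (Pax7) and 39.78, 31.92 and 30.96 RPKM (Heyl). Cd34 was higher in both old fractions than in young, with means of 21.5, 22.6 and 14.7 RPKM. Myod1, Myf5, Vcam1 and Cdh15 had their highest mean in old GSH-high. Between the old fractions Pax7 was called higher in old GSH-low, and 11 of the 12 were not called. Against young, 3 were called higher and 5 lower in old GSH-low, and 1 higher and 3 lower in old GSH-high. Markers of other cell types also differed between the groups. The 10 tenocyte markers summed to 2679 to 3069 RPKM in old GSH-low, 642 to 812 in old GSH-high and 36.2 to 38.5 in young, and the 10 fibro-adipogenic markers to 799.6 to 885, 410.3 to 445 and 189.5 to 220.2 RPKM in the same order. Dcn and Serpinf1 carried most of that sum in the old libraries, and between the old fractions 2 of the 10 were called higher and 2 lower in old GSH-low. The 14 endothelial markers summed to 32.1 to 39.7 RPKM in old GSH-low, 108.6 to 109.4 in old GSH-high and 49.4 to 58.4 in young. Smooth muscle and pericyte markers summed to 164 to 169, 145 to 166 and 194 to 204 RPKM in that order. Acta2 was the largest part of that sum, with means of 63.7, 67.2 and 133 RPKM. Most of the 9 tested went the other way against young: 5 were called higher and 2 lower in old GSH-low, and 6 higher and 2 lower in old GSH-high. Between the old fractions, 5 of 9 were called higher in old GSH-low relative to old GSH-high. Myofibre markers summed to 56.3 to 57.5, 25.7 to 27.9 and 45.6 to 45.8 RPKM, with 6 of 7 higher in that comparison, and Schwann cell markers to 152 to 162, 137 to 146 and 112 to 124 RPKM, with 3 of 8 higher and 1 lower there and 6 higher in old GSH-low than in young. The macrophage markers summed to 42.6 to 44.5 RPKM (old GSH-low), 40.8 to 47.5 RPKM (old GSH-high) and 7.2 to 8.33 RPKM (young), and lymphocyte markers to 22 to 23.9, 2.19 to 3.35 and 1.03 to 1.13 in that order. The 3 adipocyte markers in the table, of 8 listed, summed to 1.52 to 2.3 RPKM in old GSH-low, 48.2 to 68.9 in old GSH-high and 0.107 to 0.173 in young.

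The 158 carriers together made up 1.01% to 1.19% of all RPKM in each library, and their summed level was 2932 and 2913 RPKM (old GSH-low), 3145 and 3024 RPKM (old GSH-high) and 3008 and 2954 RPKM (young). Their median level over the libraries was 5.17 RPKM, beside 6.56 RPKM over all genes tested. There were 6 members with a mean of at least 100 RPKM, 44 between 10 and 100, 106 between 1 and 10 and 2 below 1, and 145 were at 1 RPKM or more in every library. The highest was Slc25a5, the ADP/ATP exchanger of the inner mitochondrial membrane in dividing and stem cells, with 527 and 539 RPKM (old GSH-low), 597 and 583 RPKM (old GSH-high) and 612 and 542 RPKM (young), which was 18% to 20.3% of the summed level. It was not called in any comparison; both old GSH-low libraries lay below the other 4, and old GSH-high overlapped young. Next came Slc43a3, a purine nucleobase carrier, with 256 and 257 RPKM (old GSH-low), 299 and 288 RPKM (old GSH-high) and 319.9 and 299 RPKM (young). Slc41a1, a magnesium carrier, had 184 and 173 RPKM (old GSH-low), 195 and 177 RPKM (old GSH-high) and 139.8 and 164 RPKM (young). The other members above 100 RPKM on average were Slc7a5, Slc38a2 and Slc10a6, described with their groups.

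**Figure D1:**
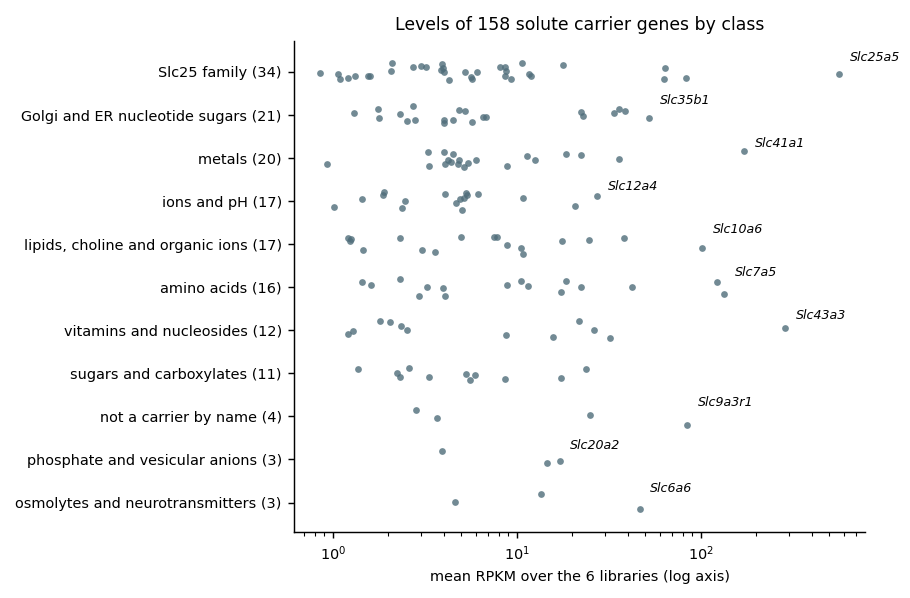
Mean RPKM over the 6 libraries (log axis) of each of the 158 solute carrier genes, 1 point per gene, in 11 groups by the substrate their symbols stand for, with the Slc25 family as 1 group. That family holds both the highest member, Slc25a5, and one of the 2 members below 1 RPKM.

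The members were chosen by their level, not by a comparison. Among the last genes let in by the level rule were Slc25a18 and Slc25a53, whose second highest library had 1.006 and 1.169 RPKM. Those just outside were Slc28a2, Slc46a1 and Slc25a14, with 0.991, 0.988 and 0.981 RPKM. Through 1 group alone passed 2 members, Slc22a3 through its young libraries and Slc25a18 through old GSH-high. Slc10a1, Slc25a43 and Slc39a8, among others, reached 1 RPKM in old libraries alone, so their rises from young are not independent of that rule. Levels moved little between libraries: the highest library exceeded the lowest by a median of 1.4-fold, against 1.43-fold over all genes tested, 101 members stayed below 1.5-fold and 16 reached 2-fold.

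Old GSH-low and old GSH-high cells differed in few carriers. Called lower in old GSH-low were 2 members, Slc9a3r2 and Slc7a8, and 0 were called higher, in the limma-trend fit on log2(RPKM + 1) with Benjamini-Hochberg adjustment over all 10609 genes and a threshold of 0.05. Over all genes 5.38% were called in this comparison, 3.69% higher and 1.69% lower, and of the members 1.27%. At an unadjusted p below 0.05 there were 12 members higher and 15 lower, and limma-voom on the recovered reads called 2 higher and 3 lower. The matching shares over all genes were not counted, so these numbers are not read as a result about carriers. The median log2 difference of the members was -0.04, beside -0.01 over all genes tested.

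Slc9a3r2 is not a carrier: it encodes NHERF2, a PDZ scaffold that holds the sodium-proton exchanger Slc9a3 and other membrane proteins at the cortex, and it is a known transcript of endothelial cells. Its level was 2.98 and 2.47 RPKM (old GSH-low), 5.12 and 5.26 RPKM (old GSH-high) and 2.78 and 3.48 RPKM (young). Both old GSH-low libraries lay below both old GSH-high libraries and their range overlapped that of young. The log2 difference between old GSH-low and old GSH-high was -0.73 ± 0.11 (SE, adjusted p = 0.00575), and between old GSH-high and young 0.59 ± 0.11 (adjusted p = 0.00579). Without old GSH-low replicate 2 the adjusted p of the first was 0.0542. The endothelial markers moved with it: 12 of 14 were called lower in old GSH-low relative to old GSH-high and 13 of 14 higher in old GSH-high than in young. These counts include Kdr, Emcn, Egfl7 and Vwf, which passed the level rule through old GSH-high alone. Their summed level was given above, none of them was at 0, and their part in the result was not tested. In bulk RNA, fewer cells of a type cannot be told apart from less RNA per cell.

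Slc7a8 encodes LAT2, which exchanges neutral amino acids across the plasma membrane when joined to the heavy chain Slc3a2. It had 42.4 and 39.3 RPKM (old GSH-low), 56.4 and 50.7 RPKM (old GSH-high) and 30.9 and 32.6 RPKM (young). All old libraries exceeded both young ones, and old GSH-high exceeded old GSH-low. Relative to young, the log2 difference was 0.35 ± 0.09 in old GSH-low (adjusted p = 0.015) and 0.73 ± 0.09 in old GSH-high (adjusted p = 0.000502). Between the old fractions it was -0.38 ± 0.09 (adjusted p = 0.0458), a call that ended when any of the 4 old libraries was left out and under some settings. The adjusted p was then 0.138 or 0.305 leaving out old GSH-low replicate 1 or 2, 0.362 or 0.126 leaving out old GSH-high replicate 1 or 2, 0.051 keeping genes with a mean of at least 1 RPKM and 0.0527 with a pseudocount of 0.1. The call of old GSH-low against young ended as well, at 0.121 leaving out old GSH-low replicate 1.

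**Figure D2:**
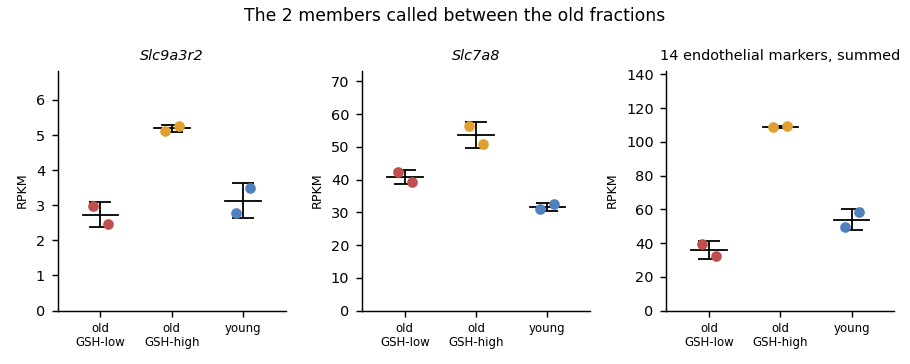
RPKM of Slc9a3r2 and Slc7a8 and the summed RPKM of the 14 endothelial markers in each library, with the mean of each group as a bar and its SD as the error line (n = 2). The old GSH-high libraries are the highest in all 3 panels, with 5.12 and 5.26 RPKM of Slc9a3r2 against 2.98 and 2.47 in old GSH-low.

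Against young cells many more carriers differed. In old GSH-low, 24 members were called higher and 24 lower, which is 30.4% of the members beside 36.8% of all genes tested (18.1% higher and 18.7% lower). In old GSH-high, 19 were called higher and 15 lower, 21.5% of the members beside 28.8% of all genes (15.1% higher and 13.7% lower). Slc22a3, which passed the level rule through its high young libraries alone, is among those lower, and without it 23 were lower for old GSH-low and 14 for old GSH-high. The counts of rises include Slc10a1 and Slc25a43 in both fractions and Slc39a8 in old GSH-high, which passed through old libraries alone. The members' shares were below those of all genes in both comparisons. When libraries were scaled by their size alone, the members called higher and lower were 28 and 15 in old GSH-low and 25 and 12 in old GSH-high. The medians of the members' log2 differences were 0.01 for old GSH-low and 0.03 for old GSH-high, beside -0.02 and -0.0040 over all genes.

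The age comparisons share the young libraries, so that the number called in both is no independent repeat. Each sets a dye fraction of 2 pooled old animals against undivided cells of 1 young animal per library. Age, dye gate and pooling therefore cannot be told apart in them. Called against young in both old fractions were 27 members, 15 higher, 12 lower (11 without Slc22a3) and 0 in opposite directions. That is 56.2% of the calls of old GSH-low and 79.4% of those of old GSH-high. Slc10a1 and Slc25a43, which passed the level rule through old libraries alone, are among the 15. There were 21 called in old GSH-low alone and 7 in old GSH-high alone, and 103 in neither. The counts leaned on single libraries: in old GSH-low, 13 were higher without its replicate 1, and 8 or 14 lower without its replicate 1 or 2; in old GSH-high, 10 were higher without its replicate 1, and 6 or 4 lower without its replicate 1 or 2. Called under every alternative tried were 19 of the 48 members of old GSH-low and 12 of the 34 of old GSH-high. Neither the overlap of calls nor these losses were counted over all genes, so they are not set apart as traits of carriers. Markers of other cell types were also called against young. Of the 10 tenocyte markers 10 were higher in old GSH-low, with 9 for old GSH-high, and of the 10 fibro-adipogenic markers 5 were higher and 2 lower in old GSH-low, and 7 higher and 1 lower in old GSH-high. All 6 macrophage and neutrophil markers tested were higher in both fractions, and of the 3 adipocyte markers 2 were higher in old GSH-low, with 3 for old GSH-high. Their part in the carriers' differences was not tested.

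**Figure D3:**
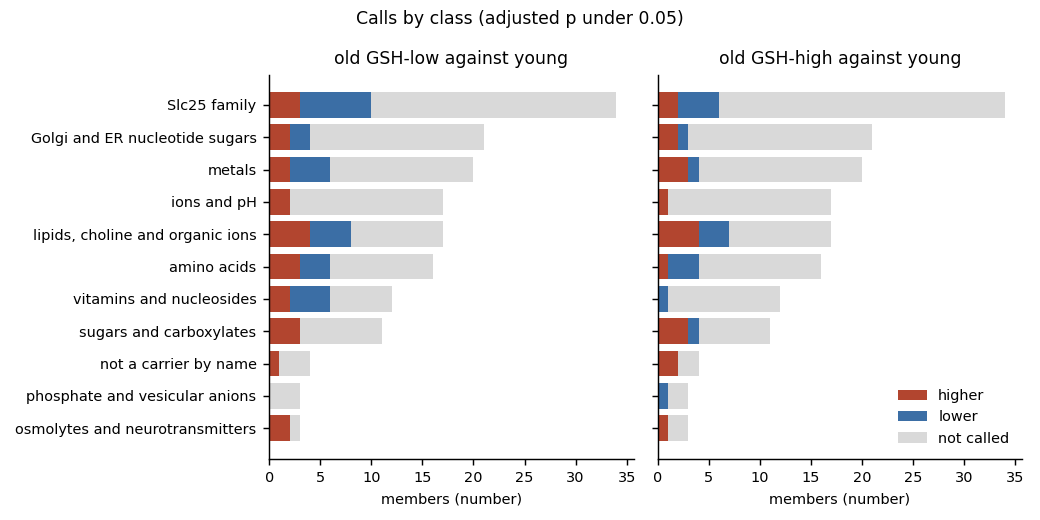
Number of members in each substrate group called higher or lower than in young or not called, as stacked bars, for old GSH-low (left) and old GSH-high (right). The Slc25 family has 7 lower and 3 higher calls in old GSH-low, and sugar and carboxylate carriers 0 and 3.

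**Figure D4:**
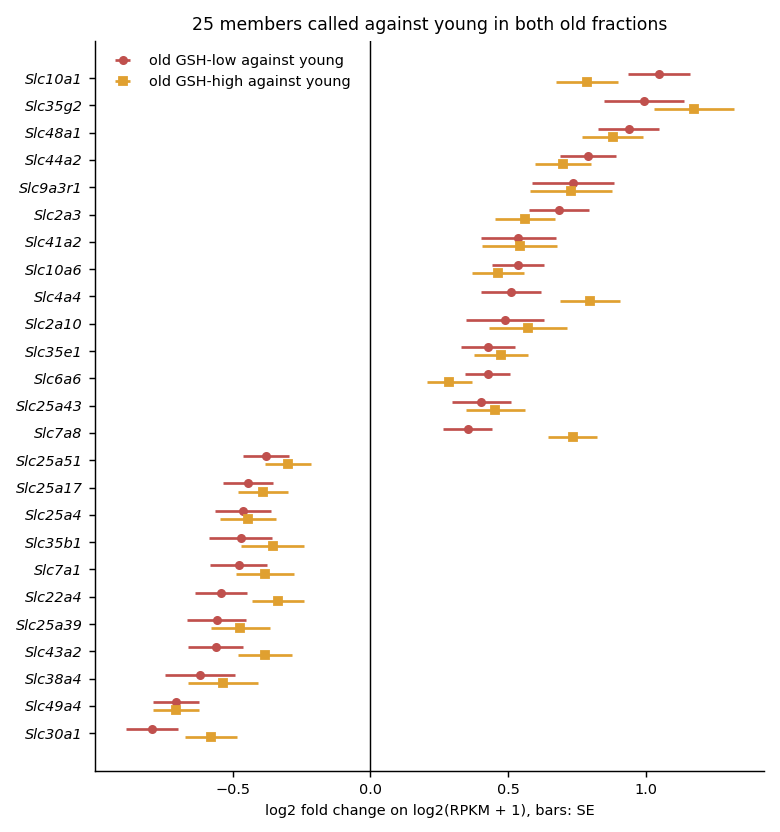
Log2 differences from young with SE, on the log2(RPKM + 1) scale, of 25 of the members called in both old fractions (Slc22a3 is not drawn), old GSH-low above old GSH-high for each gene. For every one of them both points lie on the same side of 0, 14 to the right and 11 to the left.

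Slc35g2 had the highest of the members' old GSH-high differences from young, and Slc30a1 fell in both fractions. Their upstream sequences, the 250 bases before the annotated start in RefSeq (GRCm38.p6), are shown because Slc35g2 marks the upper end of that comparison and because Slc30a1 is a textbook target of MTF-1, the zinc-sensing factor that binds metal response elements. Capitals mark matches on either strand to TGCNCNC, a looser pattern than the metal response core TGCRCNC (R is A or G). The windows are those of Slc30a1 at chr1:191906531-191906780 on the plus strand and Slc35g2 at chr9:100571086-100571335 on the minus strand, each printed 5′ to 3′ in the direction of the gene.
Slc30a1: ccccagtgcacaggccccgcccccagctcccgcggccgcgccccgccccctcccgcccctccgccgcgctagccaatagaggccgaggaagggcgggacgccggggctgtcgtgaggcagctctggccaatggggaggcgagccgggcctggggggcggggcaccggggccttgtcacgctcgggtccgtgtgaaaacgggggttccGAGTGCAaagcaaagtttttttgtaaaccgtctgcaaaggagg
Slc35g2: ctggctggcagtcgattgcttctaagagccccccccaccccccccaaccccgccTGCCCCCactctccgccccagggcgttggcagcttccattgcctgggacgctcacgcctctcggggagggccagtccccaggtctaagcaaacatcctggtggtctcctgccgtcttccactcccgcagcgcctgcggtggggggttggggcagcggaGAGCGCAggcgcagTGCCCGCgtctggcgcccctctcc
Slc30a1 held 1 match, GAGTGCA on the opposite strand, whose first base lay 43 bases before the start. Slc35g2 held 3 matches, of which TGCCCCC and TGCCCGC have C where the core has R. The pattern searched is short and common, and the core itself was not counted. It occurred in 44.4% of the 32851 promoter windows in RefSeq, in 53.3% of the 169 windows of the 123 members that have one, and in 18 of 28 (64.3%) of the windows of members called in both old fractions, Slc22a3 left out. The antioxidant response core TGACNNNGC was found in 10.2% of all windows, 18.3% of member windows and 14.3% of those called in both fractions, and the amino acid response core TGATGNAA in 3.45%, 2.96% and 3.57%, both strands counted in each case.

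Amino acid carriers numbered 16, and 3 were called higher and 3 lower than young in old GSH-low, against 1 higher and 3 lower in old GSH-high. The most abundant was Slc7a5, or LAT1, the leucine exchanger that feeds mTORC1 signalling, with 126 and 129 RPKM (old GSH-low), 146 and 142 RPKM (old GSH-high) and 124 and 136 RPKM (young). It was not called, and neither was Slc38a2, or SNAT2, a sodium-coupled carrier of alanine and glutamine, with 137 and 125 RPKM (old GSH-low), 128 and 127 RPKM (old GSH-high) and 91.6 and 122 RPKM (young). Slc38a4, or SNAT4, a sodium-coupled carrier of small neutral amino acids, had 3.07 and 3.2 RPKM (old GSH-low), 3.6 and 3.18 RPKM (old GSH-high) and 4.6 and 6.2 RPKM (young). Every old library lay below both young ones. The log2 difference from young was -0.62 ± 0.13 in old GSH-low (adjusted p = 0.00583) and -0.53 ± 0.13 in old GSH-high (adjusted p = 0.0143, or 0.0885 leaving out old GSH-high replicate 2). Slc43a2, or LAT4, which lets large neutral amino acids pass along their gradient, had 8.53 and 8.6 RPKM (old GSH-low), 10.5 and 9.2 RPKM (old GSH-high) and 12.3 and 14 RPKM (young). It fell by 0.56 on the log2 scale in old GSH-low (adjusted p = 0.00277) and by 0.38 in old GSH-high (adjusted p = 0.0205, or 0.155 leaving out old GSH-high replicate 2 and 0.0573 leaving out young replicate 2). Slc7a1, or CAT1, the carrier of arginine and lysine, had 17.6 and 21 RPKM (old GSH-low), 20.2 and 21.1 RPKM (old GSH-high) and 28.7 and 25.7 RPKM (young), again with no overlap between old and young. Its log2 difference was -0.48 ± 0.10 in old GSH-low (adjusted p = 0.00752, or 0.0734 leaving out old GSH-low replicate 1) and -0.38 ± 0.10 in old GSH-high (adjusted p = 0.0246, or 0.15 or 0.0867 leaving out old GSH-high replicate 1 or 2 and 0.0926 leaving out young replicate 1). Slc43a1, or LAT3, of the same kind as LAT4, had 12.6 and 12.6 RPKM (old GSH-low), 11.8 and 11.6 RPKM (old GSH-high) and 10.001 and 10.03 RPKM (young). It was called higher in old GSH-low alone (adjusted p = 0.0172, or 0.103 or 0.0821 leaving out old GSH-low replicate 1 or 2). Slc7a6, which exchanges arginine for neutral amino acids and also needs Slc3a2, had 18.8 and 18.5 RPKM (old GSH-low), 19.8 and 17 RPKM (old GSH-high) and 15.3 and 14.7 RPKM (young). It too was called higher in old GSH-low alone (adjusted p = 0.0368, or 0.161 or 0.119 leaving out old GSH-low replicate 1 or 2 and 0.0511 or 0.0764 leaving out young replicate 1 or 2). Not called in any comparison were 10 members of the group, from Slc38a7 with a mean of 1.45 RPKM over the 6 libraries to Slc7a5 with 134 RPKM.

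**Figure D5:**
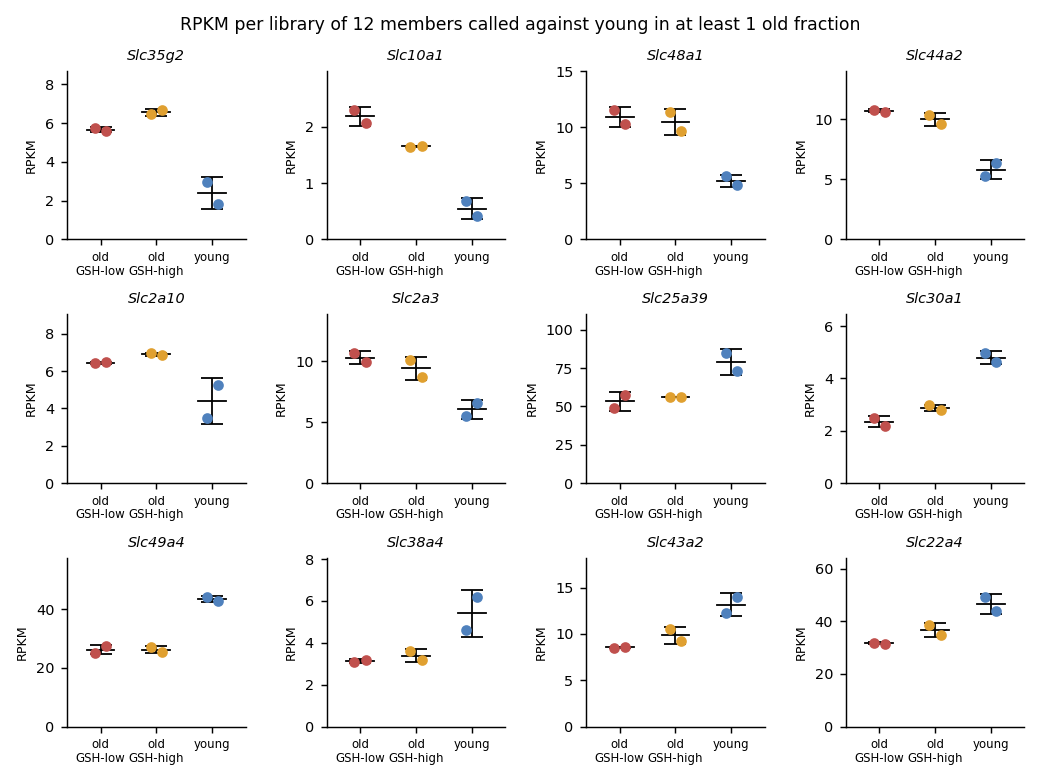
RPKM of 12 members in each library (points), with the group mean as a bar and its SD as the error line (n = 2), old GSH-low, old GSH-high and young from left to right. In the first 6 panels (Slc35g2 to Slc2a3) the young libraries are lowest, and in the last 6 (Slc25a39 to Slc22a4) they are highest.

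Among the 11 sugar and carboxylate carriers, 3 were called higher and 0 lower than young in old GSH-low, and 3 higher and 1 lower in old GSH-high. Slc2a3, or GLUT3, a glucose carrier of high affinity, had 10.7 and 9.93 RPKM (old GSH-low), 10.1 and 8.74 RPKM (old GSH-high) and 5.51 and 6.59 RPKM (young). It was higher by 0.68 ± 0.11 in old GSH-low (adjusted p = 0.0016) and by 0.56 ± 0.11 in old GSH-high (adjusted p = 0.00557, or 0.0585 leaving out old GSH-high replicate 1), without overlap of old and young. Slc2a10, or GLUT10, had 6.42 and 6.5 RPKM (old GSH-low), 6.97 and 6.85 RPKM (old GSH-high) and 3.51 and 5.27 RPKM (young), with log2 differences from young of 0.49 ± 0.14 for old GSH-low and 0.57 ± 0.14 for old GSH-high. Their adjusted p-values of 0.0263 and 0.0167 became 0.102 or 0.0961 leaving out old GSH-low replicate 1 or 2 and 0.0711 leaving out young replicate 1 in the comparison of old GSH-low, and 0.084 or 0.0661 leaving out old GSH-high replicate 1 or 2 in that of old GSH-high. Slc50a1, the only mammalian SWEET sugar carrier, had 17.2 and 18.1 RPKM (old GSH-low), 15.7 and 14.9 RPKM (old GSH-high) and 19.9 and 18.6 RPKM (young). It was called lower in old GSH-high alone (adjusted p = 0.0244, or 0.0974 or 0.161 leaving out old GSH-high replicate 1 or 2, 0.0697 leaving out young replicate 1 and 0.0501 after scaling by library size only), and its difference between the old fractions did not pass (adjusted p = 0.256). No comparison gave a call for 7 members of the group, from Slc2a13 with a mean of 1.36 RPKM over the 6 libraries to Slc37a3 with 5.59 RPKM.

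The Slc25 family, most of whose proteins sit in the inner mitochondrial membrane, was the largest group, with 34 members and a summed level of 875 and 900.0 RPKM (old GSH-low), 953 and 936 RPKM (old GSH-high) and 1033 and 919.7 RPKM (young). In old GSH-low 3 were called higher and 7 lower than young, and in old GSH-high 2 higher and 4 lower. Slc25a39, which imports glutathione into mitochondria, had 49.1 and 57.5 RPKM (old GSH-low), 56.4 and 56.4 RPKM (old GSH-high) and 84.8 and 72.9 RPKM (young). The old libraries lay below the young ones without overlap and did not differ by GSH fraction beyond their spread. The log2 difference from young was -0.56 ± 0.11 in old GSH-low (adjusted p = 0.00414) and -0.47 ± 0.11 in old GSH-high (adjusted p = 0.0114, or 0.0731 or 0.0644 leaving out old GSH-high replicate 1 or 2), and between old GSH-low and old GSH-high -0.09 ± 0.11 (adjusted p = 0.725). Slc25a4, the ADP/ATP exchanger of muscle and heart, had 53.3 and 59.4 RPKM (old GSH-low), 56.9 and 57.1 RPKM (old GSH-high) and 84.8 and 71.6 RPKM (young). It fell by 0.46 on the log2 scale in old GSH-low (adjusted p = 0.00815, or 0.0776 leaving out old GSH-low replicate 1) and by 0.45 in old GSH-high (adjusted p = 0.0124, or 0.082 or 0.0689 leaving out old GSH-high replicate 1 or 2). Slc25a3, which brings phosphate for ATP synthesis, had 84.9 and 85.9 RPKM (old GSH-low), 84.6 and 83.1 RPKM (old GSH-high) and 82.9 and 74.1 RPKM (young). It was not called.

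Slc25a17, a carrier of the peroxisomal membrane for CoA and other cofactors, had 15.4 and 15.9 RPKM (old GSH-low), 16.8 and 15.8 RPKM (old GSH-high) and 23.1 and 20.4 RPKM (young). Its log2 difference from young was -0.45 ± 0.09 in old GSH-low (adjusted p = 0.00562) and -0.39 ± 0.09 in old GSH-high (adjusted p = 0.0127, or 0.0597 or 0.0983 leaving out old GSH-high replicate 1 or 2). Slc25a51, the mitochondrial importer of NAD, had 9.52 and 9.45 RPKM (old GSH-low), 9.66 and 10.5 RPKM (old GSH-high) and 12.5 and 12.7 RPKM (young), and both comparisons with young were called, at adjusted p-values of 0.00823 for old GSH-low and 0.0282 for old GSH-high. These calls ended at 0.0561 or 0.050 leaving out old GSH-low replicate 1 or 2 in the comparison of old GSH-low, and at 0.0508 to 0.22 leaving out any library but young replicate 2, 0.0647 after scaling by library size only and 0.0541 fitting the 4 libraries of the comparison alone in that of old GSH-high. Slc25a15, the ornithine carrier of the urea cycle, had 3.09 and 3.11 RPKM (old GSH-low), 3.9 and 3.96 RPKM (old GSH-high) and 4.25 and 5.48 RPKM (young). In old GSH-low alone it was called lower (adjusted p = 0.00811, or 0.0507 leaving out old GSH-low replicate 1). Among the rises, Slc25a30, a relative of the uncoupling proteins, had 4.97 and 5.12 RPKM (old GSH-low), 4.36 and 4.16 RPKM (old GSH-high) and 3.6 and 3.54 RPKM (young). It was higher by 0.40 ± 0.09 in old GSH-low (adjusted p = 0.00693) and was not called in old GSH-high. Slc25a37, or mitoferrin-1, the mitochondrial iron importer, had 5.89 and 4.94 RPKM (old GSH-low), 5.79 and 6.13 RPKM (old GSH-high) and 4.27 and 4.25 RPKM (young). In old GSH-high alone it was called higher (adjusted p = 0.0167, or 0.0698 or 0.104 leaving out old GSH-high replicate 1 or 2). Slc25a43, whose substrate is not known, had 1.14 and 1.35 RPKM (old GSH-low), 1.23 and 1.42 RPKM (old GSH-high) and 0.777 and 0.622 RPKM (young). It passed the level rule through old libraries alone, so its rise in both fractions is a description and no test is given. Slc25a46, an outer membrane protein of mitochondrial fusion and fission, had 4.78 and 5.18 RPKM (old GSH-low), 5.63 and 6.96 RPKM (old GSH-high) and 6.76 and 7.23 RPKM (young). A lower level was called in old GSH-low alone (adjusted p = 0.0167, or 0.111 leaving out old GSH-low replicate 1). Slc25a16 had 1.94 and 1.77 RPKM (old GSH-low), 1.86 and 1.88 RPKM (old GSH-high) and 2.37 and 2.6 RPKM (young) and Slc25a23, a carrier of ATP-magnesium and phosphate, had 1.91 and 2.001 RPKM (old GSH-low), 1.47 and 1.25 RPKM (old GSH-high) and 1.43 and 1.43 RPKM (young). In old GSH-low, Slc25a16 was called lower (adjusted p = 0.0432, or 0.0533 to 0.194 leaving out any of the 6 libraries, 0.0826 after scaling by library size only and 0.0741 fitting the 4 libraries of the comparison alone). Slc25a23 was called higher there (adjusted p = 0.0497, or 0.0706 to 0.178 leaving out any of the 6 libraries, 0.0516 with median-of-ratios size factors, 0.0521 keeping genes with a mean of at least 1 RPKM, 0.0589 with a pseudocount of 0.1 and 0.0708 fitting the 4 libraries of the comparison alone). Not called in any comparison were 23 members of the group, from Slc25a18 with a mean of 0.856 RPKM over the 6 libraries to Slc25a5 with 567 RPKM.

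Of the 20 metal carriers, 2 were called higher and 4 lower than young in old GSH-low, and 3 higher and 1 lower in old GSH-high. Slc48a1, or HRG1, which passes heme from the lysosome to the cytosol, had 11.6 and 10.3 RPKM (old GSH-low), 11.3 and 9.65 RPKM (old GSH-high) and 5.62 and 4.84 RPKM (young). The old and young libraries did not overlap. Mean levels were 10.9 ± 0.897 RPKM in old GSH-low, 10.5 ± 1.17 in old GSH-high and 5.23 ± 0.55 in young (SD, n = 2 each), a ratio to young of 2.09 for old GSH-low and 2.003 for old GSH-high. The log2 difference was 0.94 ± 0.11 in old GSH-low (adjusted p = 0.000307) and 0.88 ± 0.11 in old GSH-high (adjusted p = 0.00058), called under every alternative. Slc30a1, or ZnT1, the zinc exporter of the plasma membrane (chromosome 1, 191906767 to 191913247), moved the other way, with 2.5 and 2.19 RPKM (old GSH-low), 2.97 and 2.8 RPKM (old GSH-high) and 4.97 and 4.62 RPKM (young). It fell by 0.79 on the log2 scale in old GSH-low (SE 0.10, adjusted p = 0.000342) and by 0.58 in old GSH-high (SE 0.10, adjusted p = 0.00254). Both old GSH-low libraries lay below both old GSH-high libraries, but that difference was not called (adjusted p = 0.264). Slc41a2, a magnesium carrier, had 4.94 and 4.65 RPKM (old GSH-low), 5.52 and 4.18 RPKM (old GSH-high) and 2.62 and 3.4 RPKM (young), with log2 differences from young of 0.54 ± 0.14 for old GSH-low and 0.54 ± 0.14 for old GSH-high. Their adjusted p-values of 0.015 and 0.0179 became 0.0872 leaving out old GSH-low replicate 1 and 0.0711 leaving out young replicate 1 for old GSH-low and 0.142 leaving out old GSH-high replicate 1 and 0.0866 leaving out young replicate 1 for old GSH-high. Slc31a1, or CTR1, the copper importer, had 30.8 and 32.2 RPKM (old GSH-low), 35 and 36 RPKM (old GSH-high) and 39.97 and 41.7 RPKM (young). The call was lower than young in old GSH-low alone (adjusted p = 0.00775, or 0.0737 leaving out old GSH-low replicate 1). Slc39a8, or ZIP8, which takes up zinc and manganese, had 1.27 and 0.87 RPKM (old GSH-low), 1.26 and 1.03 RPKM (old GSH-high) and 0.726 and 0.451 RPKM (young). A higher level than young was called in old GSH-high alone. The level rule let Slc39a8 in through old libraries alone, so this is a description and no test is given. Slc39a3, or ZIP3, a zinc importer, had 2.63 and 3.01 RPKM (old GSH-low), 3.38 and 2.95 RPKM (old GSH-high) and 3.63 and 4.24 RPKM (young). Relative to young, old GSH-low alone was called lower (adjusted p = 0.0278, or 0.174 or 0.0513 leaving out old GSH-low replicate 1 or 2, 0.0984 leaving out young replicate 2 and 0.0544 after scaling by library size only). Slc30a6, which loads zinc into the Golgi as a partner of Slc30a5, had 4.12 and 3.77 RPKM (old GSH-low), 4.45 and 4.6 RPKM (old GSH-high) and 5.54 and 4.69 RPKM (young). It was called lower in old GSH-low alone (adjusted p = 0.043, or 0.073 to 0.199 leaving out any library but young replicate 2, 0.0816 after scaling by library size only, 0.065 by limma-voom and 0.0727 fitting the 4 libraries of the comparison alone). No comparison gave a call for 13 members of the group, from Slc39a7 with a mean of 4.03 RPKM over the 6 libraries to Slc41a1 with 172 RPKM.

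The 17 carriers of lipids, choline and organic ions had 4 members called higher and 4 lower than young in old GSH-low, and 4 higher and 3 lower in old GSH-high. Slc22a3, or OCT3, a carrier of organic cations such as monoamines (chromosome 17, 12418960 to 12507704), had 0.669 and 0.377 RPKM (old GSH-low), 0.583 and 0.48 RPKM (old GSH-high) and 3.13 and 2.18 RPKM (young). Its ratio to young was 0.197 for old GSH-low and 0.2001 for old GSH-high. Since it entered the set through its young libraries alone, this difference is a description and no test is given. Without it the group had 3 lower for old GSH-low and 2 for old GSH-high. Slc10a1, or NTCP, known as the bile acid importer of the liver (chromosome 12, 80953183 to 80968705), had 2.3 and 2.06 RPKM (old GSH-low), 1.64 and 1.66 RPKM (old GSH-high) and 0.673 and 0.41 RPKM (young). Every old library exceeded both young libraries, and it passed the level rule through old libraries alone. Its rise is therefore a description and no test is given. Ratios of its mean RPKM to young were 4.03 for old GSH-low and 3.05 for old GSH-high. Slc44a2, a choline carrier of the plasma membrane and mitochondria, had 10.8 and 10.6 RPKM (old GSH-low), 10.4 and 9.63 RPKM (old GSH-high) and 5.24 and 6.36 RPKM (young). The old libraries again lay above the young ones, by 0.79 ± 0.10 in old GSH-low (adjusted p = 0.0005001) and 0.70 ± 0.10 in old GSH-high (adjusted p = 0.00126).

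Slc10a6, a carrier of sulfated steroids, was the most abundant member of that group, with 120.4 and 109 RPKM (old GSH-low), 113 and 105 RPKM (old GSH-high) and 83.3 and 74.6 RPKM (young). It was higher by 0.54 ± 0.10 in old GSH-low (adjusted p = 0.00279) and 0.46 ± 0.10 in old GSH-high (adjusted p = 0.00724, or 0.0815 leaving out old GSH-high replicate 1). Slc22a4, or OCTN1, the importer of ergothioneine, a thiol antioxidant taken from the diet, had 31.9 and 31.4 RPKM (old GSH-low), 38.7 and 34.7 RPKM (old GSH-high) and 49.4 and 43.8 RPKM (young). Old and young did not overlap, and it fell by 0.54 on the log2 scale in old GSH-low (adjusted p = 0.00249) and by 0.34 in old GSH-high (adjusted p = 0.0281). The second call ended at 0.0514 to 0.201 leaving out any library but young replicate 2 and 0.0512 fitting the 4 libraries of the comparison alone. Its neighbour Slc22a5, the carnitine importer on the same stretch of chromosome 11, had 17.9 and 16.4 RPKM (old GSH-low), 19.4 and 17.3 RPKM (old GSH-high) and 17.8 and 16.2 RPKM (young). It was not called. Slc15a2, or PEPT2, a proton-coupled importer of small peptides, had 2.86 and 2.16 RPKM (old GSH-low), 1.59 and 1.18 RPKM (old GSH-high) and 3.42 and 2.64 RPKM (young). It was called lower in old GSH-high than in young (-0.76 ± 0.14, adjusted p = 0.00529) but not in old GSH-low (-0.20 ± 0.14, adjusted p = 0.309). The difference between old GSH-low and old GSH-high was 0.56 ± 0.14 (adjusted p = 0.068). Slc22a17, a receptor for the iron-binding protein lipocalin-2, had 9.31 and 9.69 RPKM (old GSH-low), 6.97 and 7.42 RPKM (old GSH-high) and 6.4 and 6.91 RPKM (young), called higher in old GSH-low alone (adjusted p = 0.00416), with a difference between the old fractions of 0.36 ± 0.09 (adjusted p = 0.053). Slc44a1, the main plasma membrane choline carrier of its family, had 24 and 24.1 RPKM (old GSH-low), 27.2 and 30.2 RPKM (old GSH-high) and 18.1 and 24.1 RPKM (young). The call was higher than young in old GSH-high alone (adjusted p = 0.0313, or 0.0785 or 0.167 leaving out old GSH-high replicate 1 or 2 and 0.0998 leaving out young replicate 1). Slc10a3, whose substrate is not known, had 9.11 and 8.995 RPKM (old GSH-low), 12.6 and 11.1 RPKM (old GSH-high) and 11.4 and 11.5 RPKM (young). In old GSH-low alone it was called lower (adjusted p = 0.0244, or 0.108 or 0.108 leaving out old GSH-low replicate 1 or 2 and 0.055 after scaling by library size only). Slc27a4, or FATP4, which takes up long fatty acids, had 2.53 and 2.8 RPKM (old GSH-low), 2.73 and 2.8 RPKM (old GSH-high) and 3.18 and 4.36 RPKM (young). A lower level was called in old GSH-low alone (adjusted p = 0.0471, or 0.0705 to 0.212 leaving out any library but young replicate 1, 0.0882 after scaling by library size only and 0.0702 fitting the 4 libraries of the comparison alone). Not called in any comparison were 7 members of the group, from Slc18a2 with a mean of 1.21 RPKM over the 6 libraries to Slc22a5 with 17.5 RPKM.

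The 21 carriers of Golgi and endoplasmic reticulum, most of them for nucleotide sugars, had 2 members called higher and 2 lower than young in old GSH-low, and 2 higher and 1 lower in old GSH-high. Slc35g2, an orphan carrier (chromosome 9, 100552188 to 100571090), had 5.75 and 5.59 RPKM (old GSH-low), 6.45 and 6.7 RPKM (old GSH-high) and 2.97 and 1.83 RPKM (young). All old libraries lay above both young ones, and mean levels were 5.67 ± 0.108 RPKM in old GSH-low, 6.57 ± 0.179 in old GSH-high and 2.4 ± 0.806 in young (SD, n = 2 each). The log2 difference was 0.99 ± 0.15 in old GSH-low (adjusted p = 0.00102) and 1.18 ± 0.15 in old GSH-high (adjusted p = 0.00053). Slc35b1, which exchanges ATP and ADP across the membrane of the endoplasmic reticulum, was the most abundant, with 42.5 and 48.1 RPKM (old GSH-low), 48.6 and 49.6 RPKM (old GSH-high) and 70.3 and 56.5 RPKM (young). It was called lower in both fractions, at adjusted p-values of 0.0127 for old GSH-low and 0.0469 for old GSH-high. These became 0.104 leaving out old GSH-low replicate 1 in the comparison of old GSH-low, and 0.0611 to 0.201 leaving out any library but young replicate 2, 0.0804 after scaling by library size only and 0.0608 fitting the 4 libraries of the comparison alone in that of old GSH-high. Slc35e1, another orphan, had 24.4 and 24.2 RPKM (old GSH-low), 26 and 24.3 RPKM (old GSH-high) and 16.3 and 19.4 RPKM (young). It was called higher in both, at 0.0098 for old GSH-low and 0.00777 for old GSH-high. The adjusted p became 0.0626 leaving out old GSH-low replicate 1 and 0.0748 leaving out old GSH-high replicate 1. Slc35f6 had 3.57 and 3.48 RPKM (old GSH-low), 3.71 and 4.02 RPKM (old GSH-high) and 4.56 and 4.71 RPKM (young). The call was lower than young in old GSH-low alone (adjusted p = 0.0229, or 0.0994 or 0.109 leaving out old GSH-low replicate 1 or 2, 0.0503 leaving out young replicate 2 and 0.0522 after scaling by library size only). No comparison gave a call for 17 members of the group, from Slc35a5 with a mean of 1.31 RPKM over the 6 libraries to Slc35a4 with 38.7 RPKM.

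Vitamin and nucleoside carriers numbered 12, with 2 called higher and 4 lower than young in old GSH-low and 0 higher and 1 lower in old GSH-high. Slc49a4, a carrier of the lysosomal membrane, had 25.2 and 27.4 RPKM (old GSH-low), 27 and 25.5 RPKM (old GSH-high) and 44.3 and 42.7 RPKM (young). The old libraries lay below the young ones in both fractions, by 0.71 on the log2 scale in old GSH-low (SE 0.08, adjusted p = 0.000318) and in old GSH-high (SE 0.08, adjusted p = 0.000433), and the call held under every alternative. Slc29a2, or ENT2, which lets nucleosides pass, had 2.78 and 3.03 RPKM (old GSH-low), 2.71 and 2.1 RPKM (old GSH-high) and 1.88 and 1.67 RPKM (young). Relative to young, old GSH-low alone was called higher (adjusted p = 0.0098, or 0.0605 leaving out old GSH-low replicate 2). Slc43a3, the second most abundant member, was called lower in old GSH-low (adjusted p = 0.0369), which became 0.0703 to 0.18 leaving out any library but young replicate 2, 0.0843 after scaling by library size only and 0.0876 fitting the 4 libraries of the comparison alone. Slc19a1, the importer of reduced folate, had 7.61 and 8.32 RPKM (old GSH-low), 8.41 and 8.58 RPKM (old GSH-high) and 10.1 and 9.57 RPKM (young). Relative to young, old GSH-low alone was called lower (adjusted p = 0.0362, or 0.0699 to 0.227 leaving out any library but young replicate 2, 0.0916 after scaling by library size only and 0.072 fitting the 4 libraries of the comparison alone). Slc29a3, or ENT3, the nucleoside carrier of lysosomes, had 1.07 and 1.13 RPKM (old GSH-low), 1.2 and 1.19 RPKM (old GSH-high) and 1.63 and 1.56 RPKM (young). It was called lower in old GSH-low alone (adjusted p = 0.0323, or 0.057 to 0.15 leaving out any of the 6 libraries, 0.0549 after scaling by library size only and 0.0574 fitting the 4 libraries of the comparison alone). Slc23a1, or SVCT1, a sodium-coupled importer of ascorbate, had 1.38 and 1.49 RPKM (old GSH-low), 1.38 and 1.25 RPKM (old GSH-high) and 1.07 and 0.657 RPKM (young). It was called higher in old GSH-low alone (adjusted p = 0.0349, or 0.0508 to 0.15 leaving out any library but young replicate 1 and 0.0514 fitting the 4 libraries of the comparison alone). Its relative Slc23a2, or SVCT2, the ascorbate importer of most tissues, had 20.3 and 21.1 RPKM (old GSH-low), 23.8 and 23.1 RPKM (old GSH-high) and 21.1 and 21.1 RPKM (young) and did not pass in any comparison. Not called in any comparison were 6 members of the group, from Slc52a2 with a mean of 1.81 RPKM over the 6 libraries to Slc29a1 with 26.2 RPKM, Slc23a2 among them.

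Of 17 ion and pH carriers, 2 were called higher and 0 lower in old GSH-low, and 1 higher and 0 lower in old GSH-high. Slc12a4, or KCC1, the potassium-chloride cotransporter, was the most abundant, with 26.8 and 28.2 RPKM (old GSH-low), 28.1 and 23.7 RPKM (old GSH-high) and 25.2 and 32.1 RPKM (young). It was not called. Slc4a4, a sodium-bicarbonate cotransporter, had 2.58 and 2.34 RPKM (old GSH-low), 3.44 and 3.02 RPKM (old GSH-high) and 1.27 and 1.59 RPKM (young). No old library overlapped young, and old GSH-high exceeded old GSH-low. It was higher than young by 0.51 ± 0.11 in old GSH-low (adjusted p = 0.00694, or 0.0577 leaving out old GSH-low replicate 1) and 0.80 ± 0.11 in old GSH-high (adjusted p = 0.00089), and the old fractions differed by -0.29 ± 0.11 (adjusted p = 0.194). No comparison gave a call for 15 members of the group, among them Slc12a7 with a mean of 1.44 RPKM over the 6 libraries and Slc12a4 with 27.4 RPKM.

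Of the 3 osmolyte carriers, 2 were called higher than young for old GSH-low and 1 for old GSH-high. Slc6a6, the taurine importer, had 51.9 and 53.4 RPKM (old GSH-low), 46.2 and 49.2 RPKM (old GSH-high) and 40.1 and 37.7 RPKM (young), higher by 0.43 ± 0.08 in old GSH-low (adjusted p = 0.00423) and 0.29 ± 0.08 in old GSH-high (adjusted p = 0.0306). The second became 0.054 to 0.206 leaving out any library but young replicate 1 and 0.0591 fitting the 4 libraries of the comparison alone. Slc6a8, the creatine importer, had 5.48 and 5.41 RPKM (old GSH-low), 4.26 and 4.08 RPKM (old GSH-high) and 4.62 and 3.75 RPKM (young). In old GSH-low alone it was called higher (adjusted p = 0.0394, or 0.0665 to 0.159 leaving out any library but young replicate 1 and 0.0659 fitting the 4 libraries of the comparison alone). Slc5a3, the importer of myo-inositol, had 16 and 15.4 RPKM (old GSH-low), 12.2 and 11.7 RPKM (old GSH-high) and 11.4 and 14.6 RPKM (young) and was not called. Among the 3 phosphate and vesicular anion carriers, Slc17a5, the lysosomal exporter of sialic acid, had 3.75 and 4.18 RPKM (old GSH-low), 3.36 and 3.37 RPKM (old GSH-high) and 4.44 and 4.55 RPKM (young). In old GSH-high alone it was called lower (adjusted p = 0.025, or 0.13 or 0.111 leaving out old GSH-high replicate 1 or 2 and 0.0512 leaving out young replicate 1). The most abundant of the 3 was Slc20a2, a sodium-phosphate cotransporter, with 13.9 and 15.9 RPKM (old GSH-low), 19.7 and 18.9 RPKM (old GSH-high) and 16.4 and 17.6 RPKM (young), not called. 

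Carrying an Slc symbol without being carriers were 4 members, Slc9a3r1, Slc9a3r2, Slc7a6os and Slc4a1ap. Slc9a3r1, or NHERF1, the sister scaffold of NHERF2, had 110.4 and 85.2 RPKM (old GSH-low), 109 and 85.2 RPKM (old GSH-high) and 60.4 and 55.4 RPKM (young). Its old and young libraries did not overlap, and it was higher by 0.74 ± 0.15 in old GSH-low (adjusted p = 0.00522) and 0.73 ± 0.15 in old GSH-high (adjusted p = 0.00703, or 0.0617 leaving out old GSH-high replicate 1). Between the old fractions its difference was 0.01 ± 0.15 (adjusted p = 0.984), unlike that of Slc9a3r2 given above. The difference between these differences was not tested. Slc7a6os, which lies beside Slc7a6 on chromosome 8, had 25.1 and 24.8 RPKM (old GSH-low), 23.4 and 24.9 RPKM (old GSH-high) and 27.5 and 24.7 RPKM (young). Slc4a1ap, or kanadaptin, had 2.71 and 2.7 RPKM (old GSH-low), 3.28 and 2.53 RPKM (old GSH-high) and 2.75 and 3.04 RPKM (young). Neither was called in any comparison.

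Some members lie next to each other in the genome (GRCm38). There were 10 pairs of members within 100 kb, among them Slc22a5, Slc22a21 and Slc22a4 on chromosome 11, Slc25a43 and Slc25a5 on chromosome X, and Slc25a29 and Slc25a47, which are 163 bases apart on chromosome 12. Slc25a43, which passed the level rule through old libraries alone, was called higher in both old fractions while Slc25a5 was not called. Exons of 50 members overlapped those of another gene, on the opposite strand for 42, Slc30a1, Slc43a2, Slc48a1, Slc6a6 and Slc22a3 among them. No source used here states the strand of the libraries, and the reads of such pairs are uncertain.

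Proteins that work with carriers were called in both directions. Of all genes tested, 36.8% were called against young in old GSH-low, 28.8% in old GSH-high and 5.38% between the old fractions. No list below was tested against those shares. Of the sodium-potassium pump and its regulators 7 of 10 genes were tested, and 2 were called higher and 0 lower than young in old GSH-low and 2 higher and 1 lower in old GSH-high. Of 14 accessory proteins and regulators of carriers tested, 3 were higher and 3 lower than young in old GSH-low, and 2 higher and 4 lower in old GSH-high. Emb, or embigin, a chaperone of monocarboxylate carriers, had 7.11 and 5.73 RPKM (old GSH-low), 3.36 and 2.95 RPKM (old GSH-high) and 0.796 and 0.754 RPKM (young). It was the only one called between the old fractions (0.83 ± 0.11, adjusted p = 0.0031). Emb passed the level rule through old libraries alone, so its rise from young, part of the counts above, is not independent of that rule. Sgk1, a kinase that keeps many carriers at the cell surface, had 543 and 516 RPKM (old GSH-low), 542 and 544 RPKM (old GSH-high) and 759 and 785 RPKM (young) and fell in both fractions (adjusted p = 0.0017 for old GSH-low and 0.00322 for old GSH-high). Of 28 proteins with a carrier's fold that fall outside the symbol rule, Slco carriers among them, 8 were higher and 6 lower than young in old GSH-low. In old GSH-high, 7 were higher and 6 lower. Slco4a1, an organic anion carrier, had 4.03 and 3.67 RPKM (old GSH-low), 4.9999 and 4.31 RPKM (old GSH-high) and 0.343 and 0.262 RPKM (young). It passed the level rule through old libraries alone, so its rise from young is a description and no test is given. Ratios of its mean RPKM to young were 12.7 for old GSH-low and 15.4 for old GSH-high. The counts of rises in this list include it. Flvcr2, a choline carrier first described as a heme carrier, had 1.996 and 1.99 RPKM (old GSH-low), 1.56 and 1.79 RPKM (old GSH-high) and 5.23 and 4.91 RPKM (young). It fell by 1.02 on the log2 scale (SE 0.10) in old GSH-low (adjusted p = 8.21e-05) and by 1.18 on the log2 scale (SE 0.10) in old GSH-high (adjusted p = 5.12e-05). Ratios of its mean RPKM to young were 0.393 for old GSH-low and 0.33 for old GSH-high.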

How the data were processed

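RNA of sorted muscle stem cells was primed with oligo(dT) and sequenced from 1 end over 150 bp, per the labels' protocols. The authors deposited 1 table of RPKM for 12067 genes; per the submitters' processing notes the tools were Trim Galore, STAR, featureCounts of Subread and edgeR, on GRCm38 (mm10), with no versions. RPKM divides by gene length, so levels can be set side by side between genes only roughly. How evenly the reads covered each gene after oligo(dT) priming was not checked. In every gene the deposited RPKM came out as whole reads times 1 constant per library (tolerance 0.003 reads), which gave the library totals in the report. The file holds no 0: 230 values in 144 genes were read as replaced zeros. Some 0.0436 to 0.0638 CPM corresponds to 3 reads in the libraries, a floor that covers counting error only.

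Genes with at least 1 RPKM in 2 libraries were fitted with limma-trend (limma 3.58.1, R 4.3.3) on log2(RPKM + 1), a means model of 3 groups over 6 libraries with 3 residual degrees of freedom, two-sided, adjusted by Benjamini-Hochberg over all 10609 genes. The added 1 understates differences of low genes, and ratios of mean RPKM are given for some of them only. Each p-value rests on 2 libraries per group. The reported fit held no pairing, and a block by replicate number was planned as an alternative only. The alternatives were other scalings, filters and pseudocount, limma-voom on recovered reads, each comparison alone, a replicate block and leaving out each library. Named members were those called between the old fractions, the 10 largest rises and falls of each age comparison, and for each substrate group its most abundant member and its called members of smallest p; some others are named after their values were seen. A few genes that the rule names are not reported here. Members, lists and tests were chosen with earlier results of these data known, and the substrate groups of a few symbols were corrected after values were seen. Positions come from GENCODE M21, and for Slc49a4 from RefSeq. Of the members, 123 have a promoter in the RefSeq table used. Figures used Python 3.11.15 and matplotlib 3.10.9.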

Additional observations from a re-analysis of the deposited data

How the results depend on the processing

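No called value of a named gene changed sign under the alternatives run. Between the old fractions, where 0 members were called higher and 2 lower, limma-voom gave 2 higher, the 4 old libraries alone 4 higher and 6 lower, a mean RPKM of at least 1 gave 1 lower and a pseudocount of 0.1 gave 1 lower. With each library left out in turn, between 0 and 4 were higher and between 0 and 6 lower. Against young, library size alone left 15 members lower in old GSH-low where the fit as reported gave 24. With libraries left out, old GSH-low had 13 to 26 higher and 8 to 25 lower, and old GSH-high 10 to 26 higher and 4 to 15 lower. The causes were not tested. Same-numbered libraries did not deviate together (correlations of 0.069 for old GSH-low with old GSH-high, -0.142 for old GSH-high with young and -0.263 for old GSH-low with young), and no label says that a number marks a shared animal or day, so same-numbered libraries were not treated as pairs. With the replicate block, 1 member was higher and 1 lower between the old fractions, and with the young numbers crossed, chosen after seeing the data, 4 and 5. The block ended the call of Slc7a8 between the old fractions (adjusted p = 0.0925 by limma) and, of the named members' calls against young, 8 for old GSH-low and 4 for old GSH-high. The number of libraries per group limits the precision.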
